A study of Mus musculus with 12 samples.

Results

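The 10 genes described here, H19, Igf2, Igf2r, Dlk1, Meg3, Peg3, Plagl1, Mest, Grb10 and Cdkn1c, are imprinted genes that control growth of the fetus. They were picked by name, and where several probe sets read a gene, the brightest on average was taken. They are 10 of the 18200 genes on the array table, and all 10 were among the 15786 genes that reached a log2 level of 5 on at least 2 arrays and were tested. RNA came from 9A1 and 14B3, 2 separately isolated bipotential mouse embryonic liver (BMEL) lines, each a wild-type line of fetal liver cells that can take on hepatocyte or bile duct features. Both lines were derived from the liver of embryos of a CBA/J x C57Bl/6J cross at 14 days post coitum, and no transgene or treatment separates the groups. Each line was studied in basal culture, after 1 day as aggregates and after 5 days as aggregates, with 2 biological replicates in each of the 6 groups. Levels are log2 values of Affymetrix mouse expression arrays, differences are log2 differences with their limma standard error (SE), and adjusted p-values are limma's with Benjamini-Hochberg adjustment over all genes tested.

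An imprinted gene is read mainly from the copy inherited from the mother or mainly from the copy inherited from the father. The choice is held by DNA methylation of control regions, laid down in the germ line and copied at each cell division, and a control region usually serves a cluster of neighbouring genes. Genes read from the paternal copy, such as Igf2, Dlk1, Peg3, Plagl1 and Mest, tend to promote growth, and genes read from the maternal copy, such as H19, Igf2r, Cdkn1c and, in most tissues, Grb10, tend to restrain it. Many are abundant in fetal liver and are turned down after birth. These arrays do not tell the parental copies apart and do not measure methylation, so the values below are total RNA levels.

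The H19 RNA also carries a microRNA hairpin, and the H19 probe set is annotated to both genes. It reads the long RNA and not the mature microRNAs, whose sequences from RefSeq are given to show what the transcript holds, with the seed (bases 2 to 8) in capitals and the lines running 5′ to 3′.
mmu-miR-675-5p: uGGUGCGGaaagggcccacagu
mmu-miR-675-3p: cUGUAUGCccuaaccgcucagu

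Windows of 300 bases around annotated starts (250 before and 50 after) were in the RefSeq table for 8 of the 10 genes, 15 windows in all, with none for H19 and Cdkn1c. The windows of Grb10, Igf2r and Peg3, the protein-coding genes on which the results turn, are shown with CG pairs, the sites where imprinting methylation is placed, in capitals. They are on build GRCm38.p6, and each is read 5′ to 3′ on the minus strand, where these genes lie.
Grb10 upstream start, chr11:12037371-12037670: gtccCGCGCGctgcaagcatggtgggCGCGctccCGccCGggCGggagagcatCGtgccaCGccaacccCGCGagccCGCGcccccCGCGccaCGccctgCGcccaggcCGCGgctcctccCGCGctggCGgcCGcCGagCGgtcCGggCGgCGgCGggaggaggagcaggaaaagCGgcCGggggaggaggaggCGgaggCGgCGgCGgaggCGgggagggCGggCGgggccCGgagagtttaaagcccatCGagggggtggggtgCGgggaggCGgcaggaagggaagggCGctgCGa
Grb10 downstream start, chr11:12027922-12028221: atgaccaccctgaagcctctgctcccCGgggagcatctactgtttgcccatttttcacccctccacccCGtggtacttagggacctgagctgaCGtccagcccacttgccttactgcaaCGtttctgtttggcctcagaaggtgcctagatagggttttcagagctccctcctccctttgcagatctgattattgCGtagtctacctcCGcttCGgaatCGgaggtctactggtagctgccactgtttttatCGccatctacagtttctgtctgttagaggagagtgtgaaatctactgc
Igf2r start, chr17:12769657-12769956: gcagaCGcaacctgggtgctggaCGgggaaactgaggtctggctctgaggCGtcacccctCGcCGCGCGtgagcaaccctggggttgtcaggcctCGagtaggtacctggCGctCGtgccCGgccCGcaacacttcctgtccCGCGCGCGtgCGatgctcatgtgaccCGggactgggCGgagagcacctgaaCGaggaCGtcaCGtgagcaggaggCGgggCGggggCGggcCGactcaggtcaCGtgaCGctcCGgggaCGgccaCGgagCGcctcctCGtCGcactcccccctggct
Peg3 start, chr7:6730370-6730669: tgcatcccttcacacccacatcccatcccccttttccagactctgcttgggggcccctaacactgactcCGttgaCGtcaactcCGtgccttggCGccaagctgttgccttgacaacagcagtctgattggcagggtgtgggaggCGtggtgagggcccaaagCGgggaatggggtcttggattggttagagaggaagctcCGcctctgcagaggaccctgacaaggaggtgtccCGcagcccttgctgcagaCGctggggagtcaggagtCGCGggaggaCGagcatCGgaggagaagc

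The upstream Grb10 window holds 45 CG pairs and is 80.0% G and C, and 1.93% of the 32851 windows in the table hold as many pairs. The downstream Grb10 window holds 9 CG pairs, which 45.8% of windows reach, and the median window holds 7. The Igf2r window holds 34 CG pairs, reached by 7.73% of windows, and the Peg3 window 13, reached by 37.9%. The motif GGGGCCCC, which resembles the site that the Plagl1 protein binds, was searched on both strands and occurs once in the Peg3 window and in no other window of the 8 genes. It is present in 1.08% of all windows of this length. The motif AANATGGCG, the core bound by the protein YY1, was found in none of the 15 windows and is in 2.38% of all windows. A match is a description of the letters only.

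Before the results, 2 arrays need to be named, because they went against their line label. Xist, the RNA that coats the inactive X chromosome, stood between 11.62 and 12.60 on the 14B3 arrays and between 6.30 and 6.69 on 4 of the 6 arrays labelled 9A1. It stood at 12.13 on the array labelled basal 9A1 replicate 1 and at 12.25 on the array labelled 1 day 9A1 replicate 2. The Y-linked gene Eif2s3y was at 9.81 to 10.50 on the other 4 arrays labelled 9A1, at 3.46 to 4.06 on the 14B3 arrays, and at 3.88 and 3.75 on those 2 arrays. Across probe sets the array labelled basal 9A1 replicate 1 correlated at 0.974 and 0.976 with the 5 day 14B3 arrays and at 0.952 to 0.963 with the other basal arrays. The array labelled 1 day 9A1 replicate 2 correlated at 0.963 and 0.975 with the 1 day 14B3 arrays and at 0.949 with its own replicate. Xist and the Y-linked genes were chosen after their values were seen. The calls of the 10 genes are therefore given on all 12 arrays, without these 2, and, for culture, on the 6 arrays of 14B3 alone. Values of other genes are on all 12 arrays unless stated. Without the 2 arrays, the 9A1 basal and 1 day groups hold 1 array each, which is assumed to vary like the other groups.

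**Figure D1:**
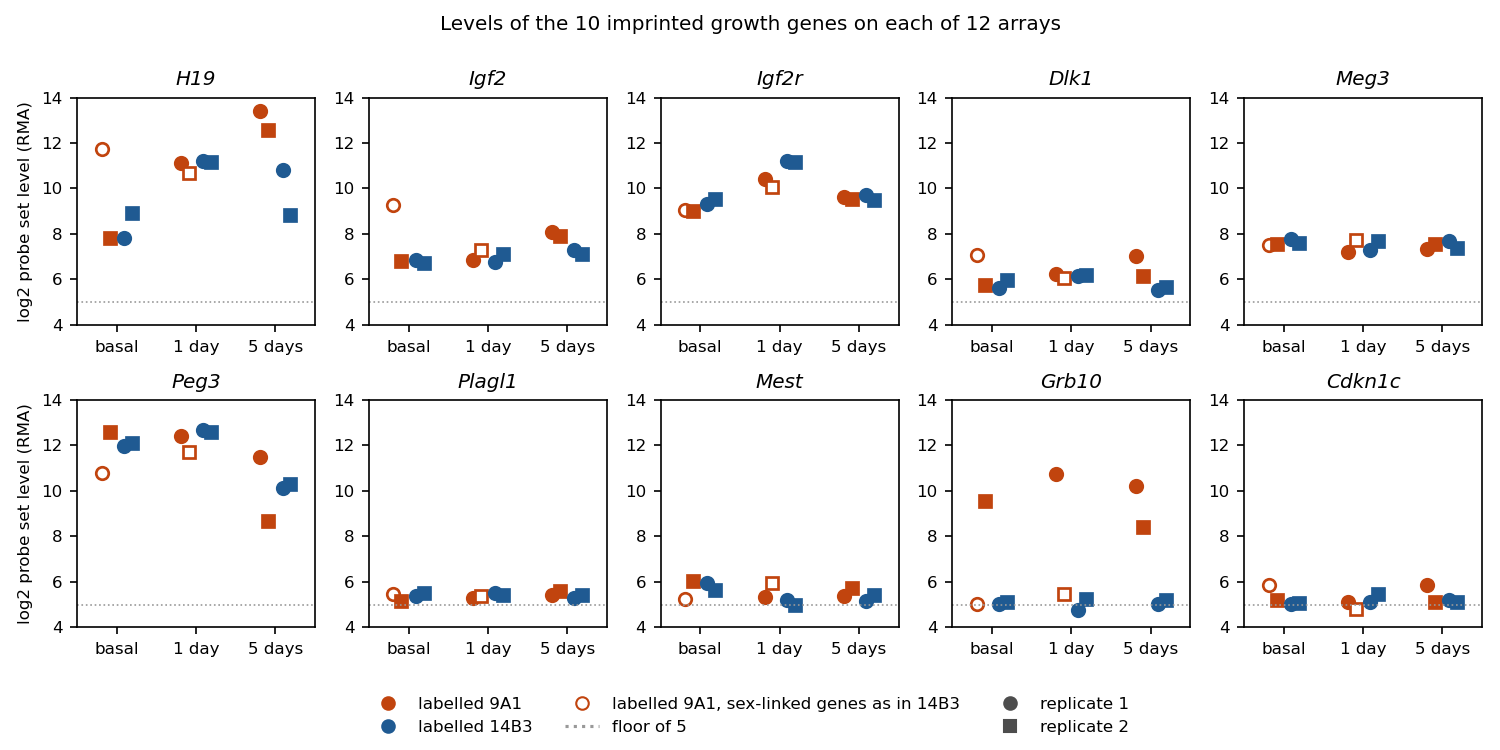
Log2 level (vertical axis, RMA, no unit) of each gene on each of the 12 arrays by culture (horizontal axis), with 9A1 in orange, 14B3 in blue, circles for replicate 1, squares for replicate 2, open symbols for the 2 arrays that went against their line label and a dotted line at the floor of 5. Igf2r peaks at 1 day, Peg3 is lowest at 5 days, Grb10 is high on 4 arrays labelled 9A1 only, and Meg3 and Plagl1 are flat.

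Culture changed a few of the 10 genes. At 1 day Igf2r rose 2.82-fold and was the only 1 of the 10 called, which sets 1 in 10 beside the 14.0% of all tested genes that were called in either direction. At 5 days against basal culture H19 rose 5.00-fold and Peg3 fell 3.32-fold, 2 of 10 beside 35.4% of all genes. Between 1 day and 5 days Igf2r fell 2.17-fold and Peg3 fell 4.61-fold, 2 of 10 beside 21.7%. Without the 2 arrays the counts were 3, 5 and 3, beside 34.0%, 52.0% and 43.0% of all genes, and in 14B3 alone they were 4, 2 and 3, beside 36.9%, 49.6% and 36.4%. These shares were near or below those of all genes. The median log2 difference of the 10 genes was 0.035 at 1 day, 0.046 at 5 days and 0.038 between them, where all genes had 0.027, 0.0086 and -0.041. The 3 comparisons use each culture's arrays in 2 of them, so they are not independent of each other.

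**Figure D2:**
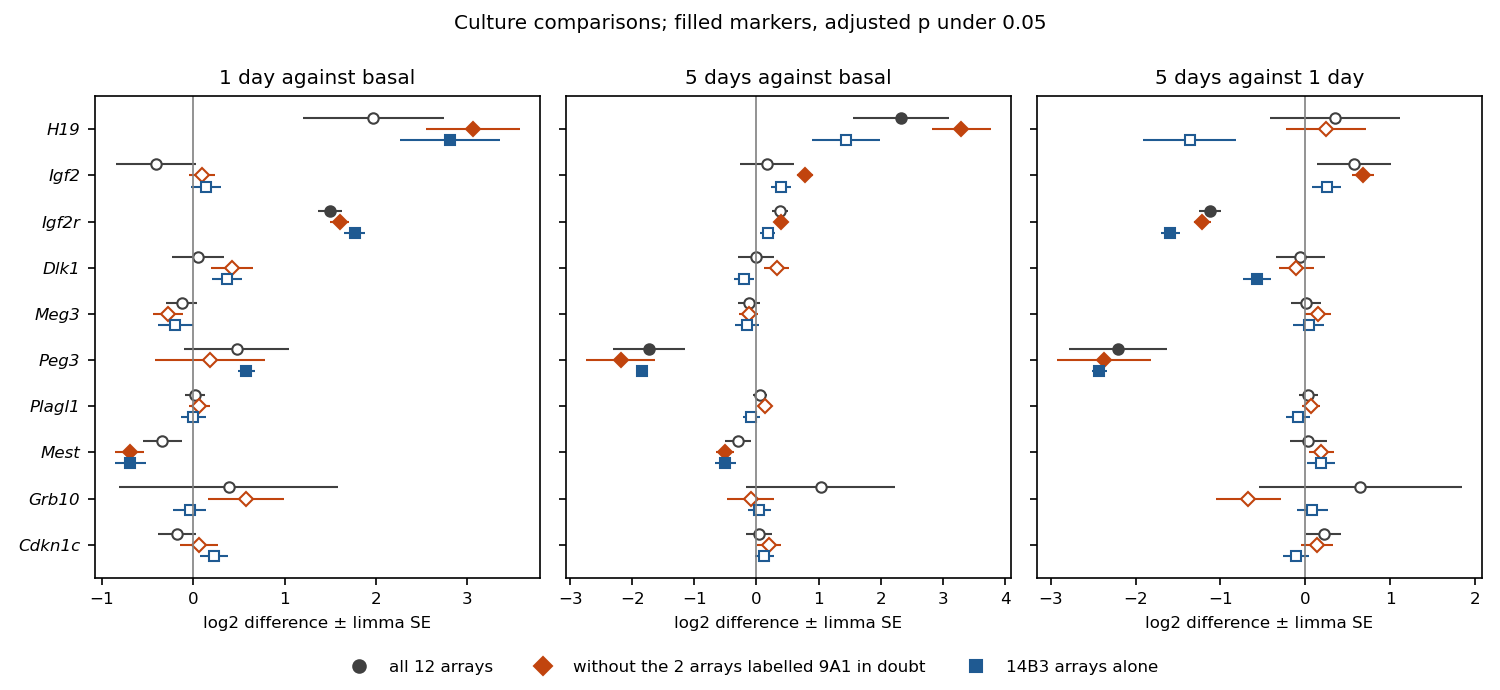
Log2 difference with its limma standard error (horizontal axis) of each of the 10 genes (vertical axis) in the 3 culture comparisons, on all 12 arrays (grey circles), without the 2 arrays (orange diamonds) and in 14B3 alone (blue squares), with filled symbols for an adjusted p under 0.05. Igf2r at 1 day and Peg3 at 5 days are filled in all 3 sets of arrays, and H19 at 5 days in the first 2.

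Among the ligands, Igf2 encodes insulin-like growth factor 2, a fetal growth factor made in large amounts by fetal liver. On the basal arrays it stood at 9.27 and 6.80 in 9A1 and at 6.86 and 6.74 in 14B3. At 1 day it stood at 6.86 and 7.30 in 9A1 and at 6.78 and 7.10 in 14B3, and at 5 days at 8.06 and 7.90 in 9A1 and at 7.28 and 7.11 in 14B3. The highest value of all was on the array labelled basal 9A1 replicate 1, and apart from it the 5 day arrays were at or above every basal array, with the 5 day 9A1 pair above all others. On 12 arrays the difference at 5 days against basal was 0.17 ± 0.43 (SE, adjusted p = 0.845, limma). When the 2 arrays were left out, Igf2 rose 1.72-fold, by 0.79 ± 0.13 (adjusted p = 0.000818), and it rose by 0.69 ± 0.13 from 1 day to 5 days (adjusted p = 0.0027). In 14B3 alone the 5 day difference was 0.39 ± 0.17 with an adjusted p of 0.0842. The other Igf2 probe set was under the floor except on the array labelled basal 9A1 replicate 1, at 5.26, and was not tested. Its 5 day values, 4.37 to 4.66, overlapped those of the other basal arrays, 4.34 to 4.62. The array with the high Igf2 also had a mean of 9.15 over 14 hepatocyte markers, where the other basal arrays had 6.09 to 6.39. It had albumin (Alb) at 13.14, against 5.57 to 6.86, and the part of these markers in the Igf2 value was not tested.

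H19, a long non-coding RNA next to Igf2 on chromosome 7 that shares its control region, varied more than Igf2. In basal culture it stood at 11.75 and 7.83 in 9A1 and at 7.83 and 8.92 in 14B3. At 1 day all 4 arrays lay close together, at 11.14 and 10.70 in 9A1 and at 11.21 and 11.16 in 14B3. At 5 days it stood at 13.41 and 12.56 in 9A1 and at 10.80 and 8.84 in 14B3. The 1 day arrays were above every basal array except the array labelled basal 9A1 replicate 1, and at 5 days the lines separated, with 14B3 replicate 2 back among the basal values. On 12 arrays H19 differed by 1.97 ± 0.77 at 1 day (adjusted p = 0.133) and rose by 2.32 ± 0.77 at 5 days (adjusted p = 0.0424). With the 2 arrays left out it rose 8.32-fold at 1 day, by 3.06 ± 0.51 (adjusted p = 0.00204), and 9.84-fold at 5 days, by 3.30 ± 0.47 (adjusted p = 0.000339). In 14B3 alone it rose 7.02-fold at 1 day (2.81 ± 0.54, adjusted p = 0.00323), and the 5 day difference was 1.45 ± 0.54 (adjusted p = 0.0542). The 5 day call on 12 arrays was kept in 2 of the 12 fits that left out 1 array, where the difference ran from 1.34 without basal 9A1 replicate 2 to 3.30 without basal 9A1 replicate 1. The 2 14B3 arrays at 5 days lay 1.95 apart on H19, and 0.0253% of tested genes were as far apart in that pair.

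H19 and Igf2 had a Pearson correlation of 0.603 over the 12 arrays, which share cultures and lines, so this is a description. The tested genes most like H19 in this measure were Cnksr1, at 0.917, and Gramd1b, at 0.914. For Igf2 they were Fam83e, at 0.965, and Tmem54, at 0.961, both also highest on the array labelled basal 9A1 replicate 1, at 8.56 and 8.66. Near the pair on chromosome 7, Ctsd, which encodes the lysosomal protease cathepsin D, rose by 0.44 ± 0.095 at 1 day and 0.45 ± 0.095 at 5 days (adjusted p = 0.0172 and 0.00526). Lsp1, a leukocyte actin-binding protein gene, fell by -0.92 ± 0.31 at 5 days (adjusted p = 0.0425).

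Igf2r encodes the cation-independent mannose-6-phosphate receptor, which carries enzymes to the lysosome and takes IGF2 from the cell surface for destruction. It was called at 1 day in each set of arrays. Its level was 9.04 and 8.99 in 9A1 and 9.31 and 9.55 in 14B3 in basal culture, 10.43 and 10.05 in 9A1 and 11.21 and 11.18 in 14B3 at 1 day, and 9.65 and 9.53 in 9A1 and 9.71 and 9.51 in 14B3 at 5 days. All 4 arrays at 1 day were above all 8 others, and the 5 day arrays overlapped the highest basal array. The rise at 1 day was 1.50 ± 0.13 (adjusted p = 0.000401) and the fall from 1 day to 5 days was -1.12 ± 0.13 (adjusted p = 0.000772). Leaving out the 2 arrays gave 1.60 ± 0.11 and -1.22 ± 0.098, with adjusted p of 2.53e-05 and 3.12e-05, and in 14B3 alone 1.77 ± 0.12 and -1.59 ± 0.12, with adjusted p of 1.09e-05 and 1.26e-05. Both calls held in each of the 12 fits that left out 1 array, with ranges of 1.40 to 1.59 and -1.22 to -1.03. The other probe set of Igf2r was called in both comparisons too, and over the pair of probe sets the differences were 1.33 to 1.50 at 1 day and -1.12 to -0.98 from 1 day to 5 days. At 5 days against basal culture the difference was 0.37 ± 0.13 (adjusted p = 0.0525), and it passed without the 2 arrays, at 0.39 ± 0.098 (adjusted p = 0.00899), but not in 14B3 alone, at 0.18 ± 0.12 (adjusted p = 0.263).

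Airn, the long RNA that is read from the paternal copy across Igf2r in the antisense direction and silences it in cis, had a level of 6.80 and 6.80 in 9A1 and 6.20 and 6.23 in 14B3 in basal culture. At 1 day it was 7.28 and 5.94 in 9A1 and 7.72 and 7.32 in 14B3, and at 5 days 6.38 and 5.77 in 9A1 and 6.14 and 6.08 in 14B3. The 1 day arrays were the highest apart from the array labelled 1 day 9A1 replicate 2. Its difference at 1 day was 0.56 ± 0.27 on 12 arrays (adjusted p = 0.239), and without the 2 arrays it rose by 0.89 ± 0.19 (adjusted p = 0.00702). From 1 day to 5 days it fell by -0.97 ± 0.27 (adjusted p = 0.0326), and by -1.31 ± 0.18 without the 2 arrays (adjusted p = 0.000438). In 14B3 alone Airn rose by 1.31 ± 0.17 and then fell by -1.41 ± 0.17 (adjusted p = 0.000358 and 0.000227). The strand that the Airn probe set reads was not checked, and a probe set annotated to both Airn and Igf2r, at 5.52 to 6.08, was not used. The genes most like Igf2r over the arrays were Clmn and Washc2, each with a correlation of 0.964. Tcp1, a chaperonin subunit gene beside Igf2r, went down by -0.43 ± 0.12 at 1 day and -1.30 ± 0.12 at 5 days (adjusted p = 0.0403 and 9.59e-05).

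Grb10 encodes an adaptor that binds the insulin and IGF1 receptors and dampens their signal. It was high on some arrays labelled 9A1 and on none of 14B3. Its level was 5.04 and 9.55 in 9A1 and 5.03 and 5.10 in 14B3 in basal culture. At 1 day it was 10.74 and 5.46 in 9A1 and 4.78 and 5.27 in 14B3, and at 5 days 10.22 and 8.42 in 9A1 and 5.01 and 5.21 in 14B3. The 6 arrays of 14B3 stayed near the floor of 5, as did the 2 arrays in doubt, and the other 4 arrays labelled 9A1 were at least 8.42. On 12 arrays the difference between the lines was 3.17 ± 0.98 (adjusted p = 0.293). Without the 2 arrays Grb10 was 28.0-fold higher in 9A1, by 4.81 ± 0.32 (adjusted p = 6.39e-05). No culture comparison of Grb10 passed in any set of arrays, and on 12 arrays its differences were 0.39 ± 1.20 at 1 day and 1.04 ± 1.20 at 5 days (adjusted p = 0.884 and 0.605). At 5 days, where the sex-linked genes of all 4 arrays match their label, the difference was 4.21 ± 1.69 on 12 arrays (adjusted p = 0.951) and 4.21 ± 0.48 with the spread estimated without the 2 arrays (adjusted p = 0.00206). Levels near the floor cannot be read as presence or absence, so the fold changes of Grb10 depend on that floor.

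The other 2 probe sets of Grb10 were also highest on the 4 arrays with high Grb10, with smaller gaps. One ran from 4.80 to 8.04 and was highest on 1 day 9A1 replicate 1, as was the other, which ran from 5.08 to 7.32. Their differences between the lines on 12 arrays were 1.29 ± 0.54 and 0.55 ± 0.33, and neither passed the test. The gene most like Grb10 over the 12 arrays was Gata5, a transcription factor gene of the endoderm and heart, with a correlation of 0.982. Its levels were 7.67, 8.09, 7.59 and 7.54 on the 4 arrays with high Grb10 and 5.27 to 5.84 on the other 8. Next was Kdm5d, a Y-linked demethylase gene, with 0.977. Close to Grb10 on chromosome 11, Ddc, the dopa decarboxylase gene, rose by 1.27 ± 0.38 at 5 days (adjusted p = 0.0289) and Cobl, an actin nucleator gene of the brush border, by 2.38 ± 0.22 (adjusted p = 9.59e-05). Fignl1, a DNA repair ATPase gene, fell by -2.94 ± 0.32 at 1 day and -3.80 ± 0.32 at 5 days (adjusted p = 0.000812 and 7.48e-05). Cobl was at 10.70 and 10.90 in 9A1 and at 10.43 and 10.48 in 14B3 at 5 days, and its difference between the lines was 0.32 ± 0.18 (adjusted p = 0.588).

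**Figure D3:**
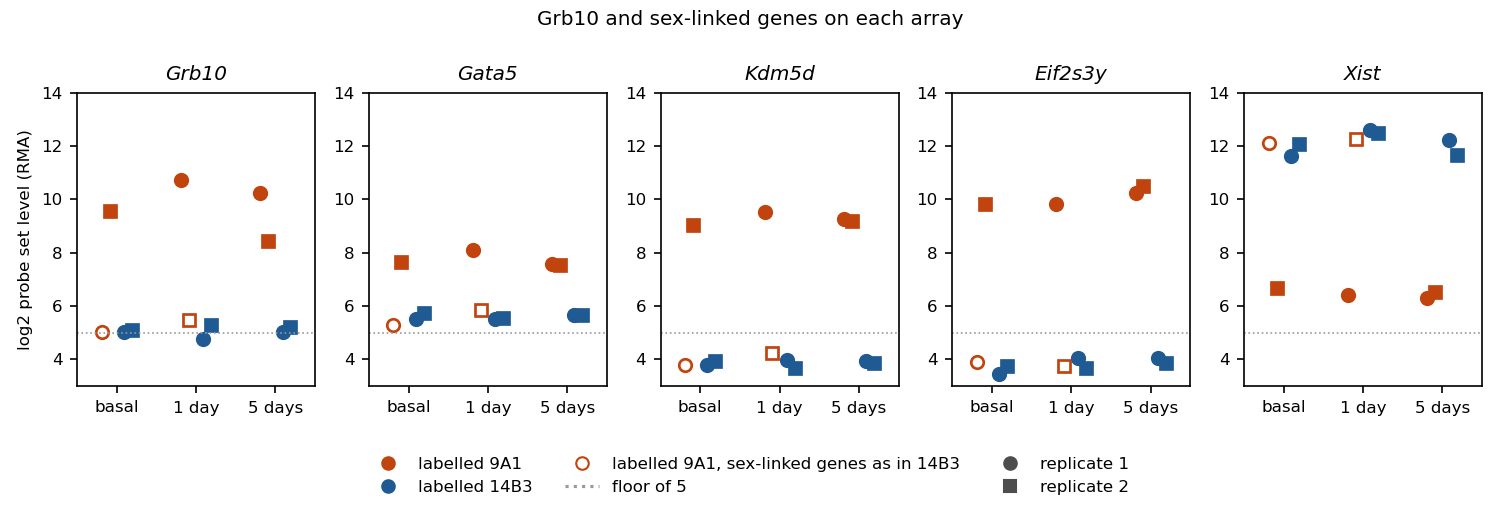
Log2 level (vertical axis) of Grb10, of its 2 most similar genes Gata5 and Kdm5d, and of Eif2s3y and Xist on each of the 12 arrays by culture (horizontal axis), with 9A1 in orange, 14B3 in blue and open symbols for the 2 arrays that went against their line label. Grb10, Gata5, Kdm5d and Eif2s3y are high on the same 4 arrays labelled 9A1, where Xist is low.

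Over the 10 genes, none was called between the lines on 12 arrays, where 0.272% of all genes were called. Grb10, Igf2r and H19 had an unadjusted p under 0.05. The share of all genes at that looser cutoff is not given here, so this is not read as an excess. Without the 2 arrays 2 of 10 were called, beside 10.7% of all genes, Grb10 higher and Igf2r lower in 9A1. Igf2r was lower by -0.41 ± 0.082 in that fit, where the 9A1 basal and 1 day groups hold 1 array each. At 5 days alone its difference in the same fit was -0.022 ± 0.12. On 12 arrays it was -0.47 ± 0.11 averaged over the cultures, and -0.21 ± 0.12 (adjusted p = 0.651) for the other Igf2r probe set. At 5 days alone none of the 10 was called on 12 arrays (0.247% of all genes). Grb10, H19 and Dlk1 had an unadjusted p under 0.05 there, again without the share of all genes at that cutoff. Without the 2 arrays, which lowers the estimated spread but leaves the 5 day arrays as they are, 3 of 10 were called beside 3.61% of all genes. These were Grb10, H19, 8.97-fold higher in 9A1 (3.17 ± 0.59, adjusted p = 0.024), and Igf2, 1.73-fold higher (0.79 ± 0.16, adjusted p = 0.0382). The difference between the lines in their response to culture, tested as an interaction, was called for none of the 10 at 1 day or at 5 days on 12 arrays, where 0 and 0.0380% of all genes were called. It was called for none without the 2 arrays either, where 0.0256% and 0.942% were. In that fit 3 of the 10, H19, Igf2 and Dlk1, had an unadjusted p under 0.05 at 5 days and none at 1 day. Their 5 day responses were larger in 9A1 by 3.71 ± 0.94 for H19, 0.79 ± 0.26 for Igf2 and 1.04 ± 0.42 for Dlk1 (adjusted p = 0.164, 0.316 and 0.452). On 12 arrays no interaction of the 10 genes had an unadjusted p under 0.05.

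Peg3, on chromosome 7, encodes a zinc finger protein that binds DNA and takes part in p53 and NF-kappaB signalling. Its level was 10.78 and 12.61 in 9A1 and 11.98 and 12.13 in 14B3 in basal culture. At 1 day it was 12.40 and 11.73 in 9A1 and 12.70 and 12.59 in 14B3, and at 5 days 11.49 and 8.67 in 9A1 and 10.13 and 10.30 in 14B3. At 5 days 3 of the 4 arrays were below every other array, and 9A1 replicate 1 was above the array labelled basal 9A1 replicate 1. Peg3 fell by -1.73 ± 0.58 against basal culture (adjusted p = 0.043) and by -2.21 ± 0.58 against 1 day (adjusted p = 0.0246). With the 2 arrays left out it fell 4.55-fold, by -2.19 ± 0.55 (adjusted p = 0.00913), and by -2.37 ± 0.55 against 1 day (adjusted p = 0.0081). In 14B3 alone, where the replicates lay close, it fell by -1.84 ± 0.091 and by -2.43 ± 0.091 (adjusted p = 4.88e-07 and 3.66e-07), after a rise of 0.58 ± 0.091 at 1 day (adjusted p = 0.00094). The 5 day fall on 12 arrays kept its call in 2 of the 12 fits that left out 1 array, those without basal 9A1 replicate 1 (-2.19) and without 5 day 9A1 replicate 1, and the fall from 1 day kept it in 7. The 5 day difference was -2.44 without 5 day 9A1 replicate 1 and -1.02 without 5 day 9A1 replicate 2. With the replicate number as a block the 5 day adjusted p was 0.0583.

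Of the 5 probe sets of Peg3, 3 were tested, with 5 day differences of -1.57 to -1.95, of which 2 passed. The other 2 stayed between 3.58 and 4.23, under the floor. The genes most like Peg3 were Srgap2, at 0.974, and Prkd3, at 0.963, the former a regulator of Rac and the latter a protein kinase D. Usp29, a neighbour of Peg3 that shares its control region, was at 5.26 to 6.12, with a 5 day difference of -0.18 ± 0.21 (adjusted p = 0.595), and without the 2 arrays it fell by -0.38 ± 0.13 (adjusted p = 0.0384).

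At 5 days the 9A1 replicates differed on several of the genes. Peg3 was 2.83 higher on replicate 1, and 0.0950% of tested genes were as far apart in that pair. Grb10 was 1.80 higher (0.697% of genes), Dlk1 0.87 (4.17%), H19 0.85 (4.32%) and Cdkn1c 0.78 (5.06%). Igf2r, at 0.12, and Igf2, at 0.17, were close on the pair. Of 14 fetal liver genes, 6 were higher and 8 lower on replicate 1, with gaps from -0.505 for Prom1 to 1.96 for Afp, which encodes alpha-fetoprotein. Igdcc4, at 1.34, and Hmga2, a chromatin protein gene of growing fetal tissue, at 1.31, came next to Afp. Replicate 1 also had a higher mean of 19 mitosis genes, 6.88 against 5.85, and of hepatocyte markers, 10.83 against 9.80. Their part in the gap was not tested.

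Dlk1, a membrane protein related to Notch ligands that marks fetal liver progenitors, lay between 5.55 and 7.08. Its level was 7.08 and 5.75 in 9A1 and 5.64 and 5.98 in 14B3 in basal culture. At 1 day it was 6.23 and 6.06 in 9A1 and 6.17 and 6.20 in 14B3, and at 5 days 7.03 and 6.16 in 9A1 and 5.55 and 5.68 in 14B3. The highest values were on the array labelled basal 9A1 replicate 1 and on 5 day 9A1 replicate 1, and the cultures overlapped. No culture comparison passed on 12 arrays, with differences of 0.051 ± 0.29 at 1 day and -0.0085 ± 0.29 at 5 days (adjusted p = 0.939 and 0.989). In 14B3 alone Dlk1 fell from 1 day to 5 days by -0.57 ± 0.16 (adjusted p = 0.023). The difference between the lines at 5 days was 0.98 ± 0.26 without the 2 arrays (adjusted p = 0.0967). The other Dlk1 probe set, near the floor at 4.71 to 5.28, differed between the lines at 5 days by -0.053 ± 0.21 on 12 arrays. Kcne3, a potassium channel subunit gene, was most like Dlk1, with a correlation of 0.920, followed by Tmeff2, at 0.889.

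Meg3, the long non-coding RNA of the same cluster on chromosome 12, was flat. It stood at 7.51 and 7.54 in 9A1 and 7.78 and 7.60 in 14B3 in basal culture, at 7.19 and 7.75 in 9A1 and 7.30 and 7.69 in 14B3 at 1 day, and at 7.33 and 7.57 in 9A1 and 7.70 and 7.37 in 14B3 at 5 days. The whole range was 0.592, the cultures and the lines overlapped, and none of the 9 Meg3 probe sets tested was called in any comparison on 12 arrays. Its differences were -0.13 ± 0.17 at 1 day and -0.12 ± 0.17 at 5 days (adjusted p = 0.723 and 0.709). Leaving out the 2 arrays gave -0.27 ± 0.17 and -0.12 ± 0.15 (adjusted p = 0.271 and 0.57), and no culture comparison of Meg3 passed in 14B3 alone. The genes most like it were Stard8, at 0.924, and Tnk1, at 0.909. Rian, another long RNA of the cluster, lay between 5.84 and 6.86 on all 12 arrays.

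Mest, an enzyme-like protein of the endoplasmic reticulum that is high in embryonic mesoderm, lay close to the floor. Its level was 5.23 and 6.06 in 9A1 and 5.94 and 5.65 in 14B3 in basal culture, 5.35 and 5.96 in 9A1 and 5.23 and 5.00 in 14B3 at 1 day, and 5.37 and 5.73 in 9A1 and 5.18 and 5.41 in 14B3 at 5 days. The 14B3 basal pair was above the other 4 arrays of 14B3, while in 9A1 the cultures overlapped. On 12 arrays the differences were -0.34 ± 0.21 at 1 day and -0.30 ± 0.21 at 5 days (adjusted p = 0.381 and 0.351). Mest fell, when the 2 arrays were left out, by -0.70 ± 0.16 at 1 day and -0.51 ± 0.14 at 5 days (adjusted p = 0.00928 and 0.0167). In 14B3 alone it fell by -0.69 ± 0.17 and -0.50 ± 0.17 (adjusted p = 0.0111 and 0.0347).

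Plagl1 encodes a zinc finger transcription factor that regulates other imprinted genes and slows the cell cycle. Its brightest probe set lay between 5.16 and 5.59 on all 12 arrays, the narrowest range of the 10, 0.429. The other one tested ran from 4.61 to 6.29. It was at 6.29 on 5 day 9A1 replicate 1 and 5.65 on the array labelled basal 9A1 replicate 1, and was called in no comparison on 12 arrays. The brightest read 5.46 and 5.16 in 9A1 and 5.40 and 5.51 in 14B3 in basal culture. At 1 day it read 5.29 and 5.39 in 9A1 and 5.50 and 5.43 in 14B3, and at 5 days 5.42 and 5.59 in 9A1 and 5.31 and 5.43 in 14B3. The 3 cultures overlapped, and its differences at 1 day and 5 days were 0.018 ± 0.11 and 0.056 ± 0.11 (adjusted p = 0.944 and 0.785). They were 0.067 ± 0.12 and 0.13 ± 0.10 without the 2 arrays (adjusted p = 0.743 and 0.36), and no culture comparison passed in 14B3 alone. Cdkn1c, the cyclin-dependent kinase inhibitor p57, read 5.88 and 5.20 in 9A1 and 5.03 and 5.06 in 14B3 in basal culture. At 1 day it read 5.10 and 4.80 in 9A1 and 5.10 and 5.45 in 14B3, and at 5 days 5.88 and 5.10 in 9A1 and 5.21 and 5.14 in 14B3. Its 2 highest arrays were those labelled basal 9A1 replicate 1 and 5 day 9A1 replicate 1. Its differences were -0.18 ± 0.21 at 1 day and 0.036 ± 0.21 at 5 days (adjusted p = 0.665 and 0.935). With the 2 arrays left out they were 0.064 ± 0.21 and 0.21 ± 0.19 (adjusted p = 0.88 and 0.431), and again no culture comparison passed in 14B3 alone. For Mest, Grb10 and Cdkn1c 11 of 12 arrays reached the floor, and low levels on these arrays are compressed, so small changes in these genes may not be detectable here. The genes most correlated with Mest were B430319G15Rik, at 0.896, and 8430437L04Rik, at 0.877. For Plagl1 they were Pdk1, at 0.803, and Arfip1, at 0.782, and for Cdkn1c Tmeff2, at 0.846, and Ifit1bl2, at 0.822.

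Around Cdkn1c on chromosome 7 several neighbours moved although Cdkn1c did not pass. Slc22a18, a membrane transporter gene, rose by 1.79 ± 0.29 at 5 days (adjusted p = 0.00144). Phlda2, which restrains placental growth, fell by -1.14 ± 0.23 at 1 day and -1.004 ± 0.23 at 5 days (adjusted p = 0.0123 and 0.00793). Cars, the cysteinyl-tRNA synthetase gene, fell by -1.76 ± 0.32 and -1.48 ± 0.32 (adjusted p = 0.00811 and 0.00634). Kcnq1ot1, the long RNA that silences this cluster on the paternal copy, was at 8.27 and 6.44 in 9A1 and at 8.59 and 8.48 in 14B3 at 1 day. In basal culture it was at 6.96, 7.74, 6.69 and 7.11, and at 5 days at 7.27, 6.29, 6.84 and 6.25, in the same order of arrays. It was not called on 12 arrays at 1 day (0.82 ± 0.40, adjusted p = 0.238), and without the 2 arrays it rose by 1.08 ± 0.28 at 1 day and fell by -1.74 ± 0.26 from 1 day to 5 days (adjusted p = 0.0174 and 0.000758). Over the 10 genes, 51 tested genes lay within 250 kb of a member. Of these 1 rose and 11 fell at 1 day, 4 rose and 12 fell at 5 days, 2 rose and 3 fell between them, and none differed between the lines on 12 arrays. These calls, 12, 16 and 5 of 51, stand beside 14.0%, 35.4% and 21.7% of all genes. All of them had the same direction without the 2 arrays, in a fit that uses 10 of the same arrays and is no independent check. In that fit Ctsd, Nap1l4, Tnfrsf22 and Tnfrsf23 were higher in 9A1, by 0.28 to 0.91. Ddc, Phlda2, Sod2 and Wtap were lower, by -0.34 to -0.91. Called neighbours not yet named were Mrpl18 by Igf2r, Ltv1, Sf3b5 and Stx11 by Plagl1, Cep41 and Tmem209 by Mest, and Tnfrsf22 and Tnfrsf23 by Cdkn1c. Each of these fell where it was called on 12 arrays, by -0.45 to -1.31.

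**Figure D4:**
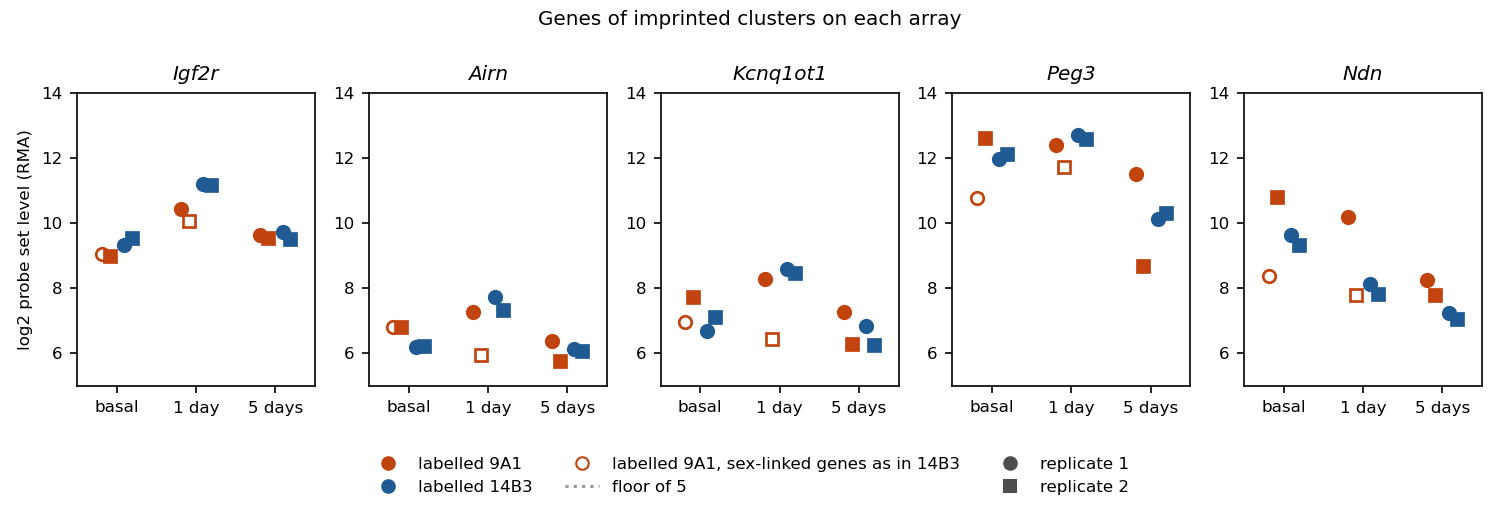
Log2 level (vertical axis) of Igf2r, of the antisense RNA of its cluster Airn, of Kcnq1ot1, of Peg3 and of Ndn on each of the 12 arrays by culture (horizontal axis), with 9A1 in orange, 14B3 in blue and open symbols for the 2 arrays that went against their line label. Igf2r, Airn and Kcnq1ot1 are highest on the 1 day arrays other than the open one for the 2 RNAs, and 3 of the 4 arrays at 5 days are the lowest for Peg3.

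A list of other imprinted genes had 43 tested members. On 12 arrays 1 rose and 4 fell at 1 day, 5 rose and 9 fell at 5 days, 3 rose and 6 fell from 1 day to 5 days, and none differed between the lines. Of all tested genes, 14.0%, 35.4%, 21.7% and 0.272% were called in these comparisons. The median differences of the list were 0.025 at 1 day and -0.026 at 5 days. At 1 day Impact, an inhibitor of the stress kinase GCN2, rose by 0.80 ± 0.16 and the lipid flippase gene Atp10a fell by -1.35 ± 0.15 (adjusted p = 0.0102 and 0.000846). At 5 days Ndn, the growth suppressor necdin, fell by -1.96 ± 0.59 (adjusted p = 0.0276), and Ppp1r9a, a neuronal actin-binding protein gene, by -1.54 ± 0.44 (adjusted p = 0.0223). When the 2 arrays were left out, the median differences were -0.0136 at 1 day and -0.0816 at 5 days. Between the lines the median was then 0.0238, and Ndn was higher in 9A1 by 1.47 ± 0.13.

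In the list of insulin-like growth factor signalling, 4 of 22 tested genes rose and 2 fell at 1 day, 5 rose and 4 fell at 5 days, and 4 fell and none rose from 1 day to 5 days. Of all tested genes, 14.0%, 35.4% and 21.7% were called in these comparisons. Ghr, the growth hormone receptor, rose by 2.01 ± 0.20 at 1 day and 2.24 ± 0.20 at 5 days (adjusted p = 0.000521 and 8.44e-05). The insulin receptor gene Insr rose by 1.33 ± 0.24 at 5 days (adjusted p = 0.00247). Igfbp3, which encodes a binding protein that holds IGFs in the circulation, fell by -2.04 ± 0.50 at 1 day and -2.02 ± 0.50 at 5 days (adjusted p = 0.0287 and 0.0121). Htra1, a secreted protease that cuts IGF binding proteins, fell by -3.37 ± 0.14 at 5 days (adjusted p = 2.66e-05) and was lower in 9A1 by -1.20 ± 0.12 (adjusted p = 0.00942), the only gene of this list called between the lines on 12 arrays. Irs1, which passes on the receptor signal, rose by 1.32 ± 0.16 at 1 day and fell by -1.23 ± 0.16 from 1 day to 5 days (adjusted p = 0.00113 and 0.00108). Leaving out the 2 arrays, the median difference of the list was 0.0554 at 1 day and 0.0575 at 5 days.

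In a list of DNA methylation and chromatin genes tied to imprinting, most of those called fell. The list is not limited to genes that keep imprints through cell division, and it includes Tet1, Tet2 and Tet3. Of 24 tested, 2 rose and 6 fell at 1 day, 1 rose and 10 fell at 5 days, and 9 fell from 1 day to 5 days. Here and for the lists that follow, 14.0%, 35.4% and 21.7% of all tested genes were called in these comparisons. Dnmt1, the maintenance DNA methyltransferase, fell by -1.89 ± 0.26 at 1 day and -2.60 ± 0.26 at 5 days (adjusted p = 0.00237 and 0.000151). Uhrf1, which brings it to newly copied DNA, fell by -2.89 ± 0.34 and -3.89 ± 0.34, and Hells, a chromatin remodeller, by -3.03 ± 0.41 and -4.37 ± 0.41. When the 2 arrays were left out, the median difference of the 24 was -0.0194 at 1 day and -0.422 at 5 days. All 19 mitosis genes tested fell in each of the 3 culture comparisons, with a median of -3.98 at 5 days, and -4.27 without the 2 arrays. Another list joins cyclin-dependent kinase inhibitors with cyclins and kinases. Of its 14 genes 6 fell at 1 day and 8 at 5 days and none rose, while from 1 day to 5 days 2 rose and 4 fell. In 14B3 alone 1 rose and 7 fell at 1 day, and 1 rose and 9 fell at 5 days, beside 36.9% and 49.6% of all genes. With the 2 arrays left out, the median differences of these 14 were -0.794 at 1 day and -1.45 at 5 days. Fewer dividing cells and less RNA per cell cannot be told apart in these bulk samples. Of 12 Notch pathway genes 1 rose and none fell at 1 day, and 2 rose and 5 fell at 5 days. With the 2 arrays left out, the median differences of these 12 were -0.125 at 1 day and -0.656 at 5 days. In 14B3 alone 1 rose and 5 fell at 1 day, and 1 rose and 8 fell at 5 days, beside 36.9% and 49.6% of all genes. Of 12 fetal liver genes tested 1 rose and none fell at 1 day, and 2 rose and 3 fell at 5 days, with Hmga2 down by -4.31 ± 0.49 (adjusted p = 0.000267). With the 2 arrays left out, the median differences of these fetal liver genes were -0.0501 at 1 day and -0.00692 at 5 days. Over all lists, 53 genes were called at 1 day, 98 at 5 days and 75 from 1 day to 5 days. They were kept in the same direction without the 2 arrays, the exceptions being Cdkn2d at 1 day and Cdkn2a from 1 day to 5 days. That fit uses 10 of the same arrays and called more of all genes, so this is no independent check.

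Marker lists of other cells give the setting of these changes. At 5 days 10 of 14 hepatocyte markers and 13 of 15 absorptive gut markers rose, or 12 and 13 when the 2 arrays were left out. The mean of the hepatocyte markers was 6.09 to 6.39 on the basal arrays other than the array labelled basal 9A1 replicate 1, 7.37 to 7.61 at 1 day and 9.34 to 10.83 at 5 days. The mean of the gut markers ran from 7.30 to 7.70 on the same basal arrays and from 11.31 to 12.10 at 5 days, and was 10.53 on the array left aside. The stellate and mesenchymal markers stayed at a mean of 5.30 to 5.77, the endothelial markers at 5.32 to 5.82 and the blood cell markers at 5.87 to 6.41. Of these, 0 of 14 mesenchymal, 0 of 12 endothelial and 2 of 10 blood cell markers tested were called at 5 days, beside 35.4% of all genes. Of the 2 blood cell markers called, 1 rose and 1 fell. The blood cell gene Ptprc was at 4.48 to 4.73, the endothelial gene Pecam1 at 4.63 to 5.34 and the collagen gene Col1a1 at 5.28 to 6.41 on all arrays. Other members of these lists moved. The blood cell gene Csf1r was at 7.65 to 9.17 in basal culture and at 9.53 to 12.02 at 5 days. Cd68 was at 6.95 to 8.13 and at 5.85 to 6.39. On the array labelled basal 9A1 replicate 1 the endothelial gene Vwf was at 7.25, against 4.58 to 4.99 elsewhere. Cdh5 was at 7.65 there, against 4.64 to 5.65. The hepatocyte and gut markers moved in the same cultures as H19 and Peg3, and their part in those changes was not tested.

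The array medians lay between 6.09 and 6.24, and no detection calls were used. The array labelled 1 day 9A1 replicate 2, 1 of the 2 in doubt, had the highest median and a narrower spread than the others. Its standard deviation over probe sets was 2.13, against 2.25 to 2.33. The 12 arrays limit the precision of every value, and p-values measure only the spread between these cultures of 2 lines.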

How the data were processed

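Biotin-labelled total RNA of 12 cultures was hybridised to Affymetrix mouse expression arrays. Per the submitters' processing notes, the authors used RMA and R 2.3.1, and the deposited table is on the log2 scale. The method subtracts background, is meant to give arrays a like distribution and summarises probes, so a change in total RNA per cell is not seen and low levels are compressed. The table has 45101 probe sets, of which 34945 name 1 gene by the platform annotation. A further 9 name a microRNA and its host gene, H19 among them, and were given to the host. Probe sets that name several other genes (923) or none (9160) and 64 controls were left out.

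A gene was tested if 2 or more arrays reached a level of 5. The software was R 4.3.3, limma 3.58.1 and, for array weights and blocks, statmod 1.5.0. A mean was fitted for each of the 6 groups to all 12 arrays, with a variance trend and Benjamini-Hochberg adjustment, and called at an adjusted p under 0.05. The fit was tested on simulated data. The 10 genes and the 12 gene lists were chosen with earlier results of these data known, and no set test was run. The text names all 10 genes, the 2 genes most correlated with each, called genes within 250 kb and, from the 3 with the largest change each way in a list, a part. Replicate numbers were not used to pair samples, and the labels do not say whether same-numbered replicates were handled together. Over 15 pairs of groups the correlation of same-numbered deviations ran from -0.302 to 0.499, and 5 exceeded 0.1, so pairing is not excluded. Alternatives were other floors, probe set rules, scalings, variance models, single lines, a replicate block and leaving out each array. Leaving out both arrays in doubt was chosen after seeing the data.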

Additional observations from a re-analysis of the deposited data

Results flagged for a closer look

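Of 30 tests of 1 array against the others of its culture, 5 picked out an array that stood apart from the other 3 by most of the group's range. Among like arrays chance would give about 1 in 20 such tests. Each culture holds 2 lines, and 2 arrays went against their line label, so this rate cannot be set against the 5. In basal culture the array labelled 9A1 replicate 1 had Igf2 at 9.27, where the remaining arrays had 6.74 to 6.86, and 9A1 replicate 2 had Grb10 at 9.55, where the rest had 5.03 to 5.10. At 1 day 9A1 replicate 1 had Grb10 at 10.74, where the rest had 4.78 to 5.46, and the array labelled 9A1 replicate 2 had H19 at 10.70, where the rest had 11.14 to 11.21. At 5 days 9A1 replicate 1 had Cdkn1c at 5.88, where the rest had 5.10 to 5.21. In the basal and 1 day groups the arrays that stand alone on Grb10 are the only arrays labelled 9A1 whose Xist and Y-linked genes match the 5 day 9A1 arrays.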

How the results depend on the processing

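On 12 arrays 1, 2 and 2 of the 10 genes were called at 1 day, at 5 days and between them, 0 between the lines, 0 between the lines at 5 days and 0 in each interaction. Without both arrays in doubt the first 5 counts were 3, 5, 3, 2 and 3. In 9A1 alone they were 0, 0 and 0, and in 14B3 alone 4, 2 and 3, for the culture comparisons. At 1 day 0 of all 15510 genes tested in 9A1 alone were called, against 5682 of 15405 in 14B3 alone. The 5 day count was 1 with the mean of probe sets, where 5434 of all 15216 genes were called, and 1 in the additive model. With array weights 1 gene was called from 1 day to 5 days and 1 between the lines at 5 days. Leaving out 1 array gave 1 to 2 genes at 1 day, 0 to 3 at 5 days, 1 to 3 between them, 0 to 3 between the lines, 0 between the lines at 5 days, and 0 to 1 in each interaction, where the 1 came without basal 9A1 replicate 2. Replicate numbers were not used in the main fit, as the labels do not say what same-numbered replicates share. With a replicate block the 5 day count was 1, as Peg3 lost its call, and the other 6 counts were as without it. The number of all genes called moved between fits too. At 1 day it was 1281 of 15786 with array weights and 2704 of 15721 with quantile normalisation. Changes in the counts of the 10 genes are therefore not read as results about these genes.

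Some differences changed sign, none of them called on 12 arrays. In 9A1 alone Mest at 1 day was 0.011, Igf2 at 5 days -0.053 and Dlk1 from 1 day to 5 days 0.45. Leaving out 1 array at a time, Igf2 at 5 days ran from -0.45 (without basal 9A1 replicate 2) to 0.79, and Dlk1 from 1 day to 5 days from -0.28 to 0.16 (without 5 day 9A1 replicate 2). With the mean of probe sets the Dlk1 value was 0.031. The 5 day interaction of Igf2 was -0.45 on 12 arrays and 0.79 without both arrays in doubt. The cause was not tested. Quantile normalisation moved the share of rises among all called genes from 37.3% to 48.6% at 1 day and from 51.2% to 61.7% between the lines. No scaling tried moved the median difference of all genes by 0.1 or more.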
